A study of Mus musculus with 30 samples.

Results

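The livers of male mice labelled as carrying a growth hormone receptor mutated within Box1 were compared with livers labelled wild type (WT). The comparison used 6 of the 30 bead arrays of the study, chosen by their labels alone: 3 liver arrays labelled Box1 and 3 labelled WT. All mice were 4 months old and had been fasted overnight. The other liver groups, with 3 arrays each, were labelled as a receptor truncated at amino acid 569, a receptor truncated at amino acid 391, and a receptor removed altogether (KO). The same 5 genotypes were measured in subcutaneous fat. The labels call the mice transgenic and name no strain, promoter, founder line or pooling, so how far each group stands for its mutation in general is unknown.

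As background, growth hormone binds a receptor that carries no kinase of its own. Box1 is a proline-rich segment just inside the membrane through which the receptor holds the kinase JAK2, and the tyrosines that JAK2 phosphorylates further along the tail recruit STAT5. In liver this pathway drives Igf1, the circulating growth factor, and Igfals, the subunit that keeps it in plasma. It also drives the feedback inhibitors Socs2 and Cish, and the pulses of growth hormone in males maintain male-biased genes and hold down female-biased ones. The comparison sets livers labelled with a Box1 mutant beside WT. Whether JAK2 signals from the receptor were absent in them was not measured here.

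STAT5 binds a palindromic site spelled TTCNNNGAA, a motif that is its own reverse complement and so reads the same on both strands. The promoter windows of 3 members are printed because these genes changed in the comparison and hold the motif, which is in capitals; they were picked after both were seen. Cish and Igfals were lower and Bcl6, a repressor that can occupy STAT5 sites, was higher. The windows come from RefSeq on GRCm38.p6 and run 5′ to 3′ from 250 bases before to 50 bases after an annotated start. Cish has 1 such start, Igfals 3 and Bcl6 2, and the window with the most sites is printed. Cish lies at chr9:107296409-107296708 on the plus strand and its window holds 2 sites, Igfals at chr17:24877594-24877893 on the plus strand with 1 site, and Bcl6 at chr16:23981234-23981533 on the minus strand with 3 sites.
Cish: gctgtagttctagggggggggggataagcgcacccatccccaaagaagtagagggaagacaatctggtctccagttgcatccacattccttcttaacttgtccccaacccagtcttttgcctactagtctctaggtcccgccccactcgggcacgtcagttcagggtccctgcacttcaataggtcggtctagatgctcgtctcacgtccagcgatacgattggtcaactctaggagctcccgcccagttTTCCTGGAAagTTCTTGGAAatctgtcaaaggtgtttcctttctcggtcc
Igfals: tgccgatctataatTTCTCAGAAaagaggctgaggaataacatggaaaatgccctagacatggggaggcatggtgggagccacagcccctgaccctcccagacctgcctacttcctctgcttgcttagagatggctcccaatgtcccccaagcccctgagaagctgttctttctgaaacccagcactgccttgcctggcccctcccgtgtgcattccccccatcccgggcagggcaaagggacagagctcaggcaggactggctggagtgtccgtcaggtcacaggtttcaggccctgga
Bcl6: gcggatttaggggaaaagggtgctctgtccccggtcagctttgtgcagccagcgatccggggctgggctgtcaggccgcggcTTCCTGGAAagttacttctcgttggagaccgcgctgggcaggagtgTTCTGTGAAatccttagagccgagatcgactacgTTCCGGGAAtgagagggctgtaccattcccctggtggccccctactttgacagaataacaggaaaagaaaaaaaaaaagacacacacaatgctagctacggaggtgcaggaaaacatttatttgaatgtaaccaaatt
Among all 32851 windows of 300 bases, 8.3% held the motif, and of 27025 genes with a window 9.55% held it in at least 1. Of the 357 genes called higher in the arrays labelled Box1, 288 had a window and 6.6% of these held it. Of the 97 called lower, 74 had a window and 12.2% held it. A match is a description of the letters and not a bound site.

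Each deposited value divides a probe's signal by that probe's median across the 15 arrays of its tissue, so a ratio of 1 is the liver median and no absolute level remains. The array medians lay between 0.98 and 1.01. Differences are fitted log2 differences ± SE from limma with n = 3 arrays a group, and a probe is called where its p-value, with Benjamini-Hochberg adjustment across the 46643 probes, is under 0.05. All arrays labelled Box1, of both tissues, lay on 1 slide, and the liver arrays labelled WT and 569 lay on another. Slide and genotype therefore cannot be told apart in any comparison of Box1 with another label. The labels do not say that arrays are separate animals, so p-values reflect only how these samples spread, and that spread may be technical. Tissue RNA was measured, so fewer cells of a type and less RNA per cell cannot be told apart. Pancreatic acinar transcripts were high in liver 391 replicates 2 and 3 alone, where 14 and 12 of 17 markers exceeded 1 on the log2 scale, and 0 of 17 did so in any array labelled WT or Box1. Muscle markers were high in liver 391 replicate 2, where 9 of 11 exceeded 1, and 0 of 11 did so in any array labelled WT or Box1.

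The labels of liver and fat did not carry the same pattern, and this bears on the labels Box1, KO and 391 in either tissue. A probe that sets 1 liver label apart from all other liver arrays by at least 1 on the log2 scale was found 2 times for Box1, 10 times for KO, 2 times for WT and 0 times for 569 and for 391. These probes were chosen after their values were seen. The first Box1 probe, 104060685, has no gene name in the annotation used. Its liver ratios were 11.67, 13.57 and 16.21 in the arrays labelled Box1 and between 0.88 and 1.03 in the other liver arrays. In fat the Box1 arrays had 0.99, 0.89 and 19.18, the KO arrays had 1.03, 13.15 and 23.27, and the ratios lay between 0.91 and 1.05 in the others. The second Box1 probe detects Ghr, the targeted gene. In fat it read 1.43, 0.96 and 0.44 under the label Box1 and 1.12, 0.29 and 0.46 under the label KO. The 3 fat arrays high at the unnamed probe were thus the 3 lowest of all fat arrays at this Ghr probe, and the next lowest, labelled 391, was at 0.5.

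Some probes of the liver KO label stood apart under another label in fat. Gdi2, a regulator of Rab proteins, had ratios of 0.13, 0.14 and 0.13 in the livers labelled KO, against 0.15, 0.09 and 0.1 in the fat arrays labelled 391 and 1.09, 1.04 and 1 in the fat arrays labelled KO. Pttg1, the securin gene, had ratios of 0.38, 0.39 and 0.38 in the livers labelled KO, against 0.35, 0.31 and 0.28 in the fat labelled 391 and 0.94, 1.04 and 1 in the fat labelled KO. Of the 10 probes, 5 had the fat arrays labelled 391 all above or all below the other fat arrays, and 0 had those labelled KO so. Any margin counted in fat, without the minimum of 1 used in liver. For Abhd1 the lowest 391 ratio was 1.7 and the highest other was 1.44. The labels Box1, KO and 391 therefore disagree between the tissues at these probes, and these data do not say in which tissue they hold. Below, a genotype names the arrays so labelled, and results that use fat are given with and without the fat Box1 arrays concerned. In liver, the 3 arrays labelled Box1 were alike at both Box1 probes, and so were the 3 labelled WT. These probes were chosen because the Box1 livers stood apart there, so this cannot check the liver labels. WT livers were not alike at some other probes, picked after their values were seen. A Ugt1a10 probe read 1.01, 0.97 and 4.37 in WT and 4.53, 4.06 and 4.67 in KO. A Cptp probe read 1.05, 0.89 and 2.98 in WT and 3.14, 2.92 and 3.42 in KO. At Gdi2, by contrast, WT replicate 3 was at 0.64, away from KO. The cause was not tested.

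**Figure D1:**
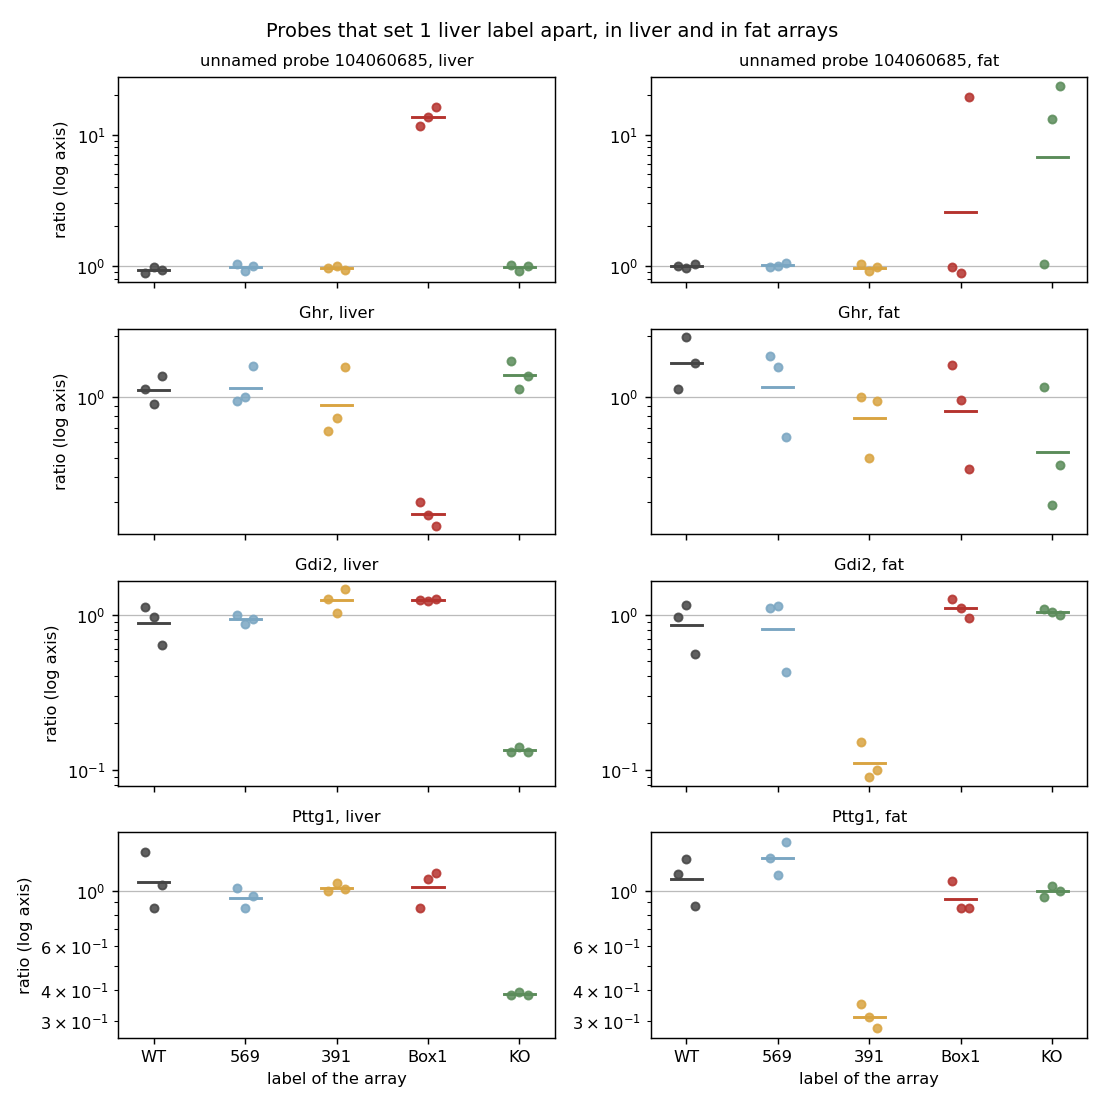
Deposited ratios (log axis) of 4 probes in the 15 liver arrays (left) and the 15 fat arrays (right), by array label; each point is an array and each bar the mean of the log values. The unnamed probe is above 11 in the 3 livers labelled Box1, and in fat in 1 array labelled Box1 and in 2 labelled KO, while the low Gdi2 and Pttg1 values fall on KO in liver and on 391 in fat.

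Ghr was read by 2 probes, and where they lie relative to the mutated segment is unknown here. The first, 2260156, had ratios of 1.09, 0.92 and 1.27 in WT liver and 0.3, 0.26 and 0.23 in Box1 liver. All Box1 values lay below all WT values. Ghr fell by 2.05 ± 0.23 (limma adjusted p = 2e-04), or 4.14-fold. The livers labelled KO had 1.51, 1.09 and 1.26 at this probe, not below WT. The second probe had 0.8, 0.61 and 1.14 in WT and 1.15, 1.28 and 0.96 in Box1, a difference of 0.45 that was not called. The pair of probes disagree, and since neither can be placed on the receptor gene, neither checks the Box1 or KO labels.

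Liver labelled Box1 differed from WT at 616 of 46643 probes (1.32%), of which 493 were higher (1.06%) and 123 lower (0.264%). Rises were the more frequent, but of the changes of at least 8-fold 17 were falls and 13 were rises. The called probes named 357 higher and 97 lower genes, and 117 called probes had no gene name. Of 278 such genes with over 1 probe, 27 had every probe called and 239 had only 1 called. All probes of a gene, called or not, had the same direction in 171 of the 278, and called probes in both directions occurred in 0. All 616 called probes had groups that did not overlap, as did 16.4% of all probes. Without 1 array the count lay between 251 (without WT replicate 3) and 984 (without WT replicate 1), with 321, 280 and 273 without Box1 replicates 1, 2 and 3 and 285 without WT replicate 2. The count was 1168 without liver 391 replicates 2 and 3, which leaves the spread to be estimated from the other arrays. Per gene, with 1 probe each, 314 of 19406 genes were called higher (1.62%) and 94 lower (0.484%), together 2.1%, and the median difference over all genes was 0.04. Of the 19406 genes, 11712 were above 0 and 3272 had an unadjusted p under 0.05 in limma. Such counts for the lists below are to be read against these.

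Igf1 was read at ratios of 20.72, 18.39 and 18.92 in WT and 0.47, 0.44 and 0.57 in Box1. Every Box1 array lay far below every WT array, and Igf1 fell by 5.30 ± 0.18, or 39.4-fold (adjusted p = 8.6e-11). A further Igf1 probe fell by 4.08. Igfals fell with it, from 14.71, 14.27 and 12.01 to 1, 0.75 and 0.67, a change of −4.10 ± 0.22 (adjusted p = 3.7e-08). Both called IGF genes of this direction are products of hepatocytes that form the circulating complex.

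The binding proteins moved differently from each other. Igfbp1, a binding protein that rises in fasting and low insulin, had ratios of 0.22, 0.16 and 0.11 in WT and 2.64, 2.18 and 2.29 in Box1, a rise of 3.91 ± 0.81 (adjusted p = 0.029). Igfbp2 rose by 1.15 ± 0.24, from between 0.45 and 0.59 to between 1.08 and 1.27 (adjusted p = 0.029). Igfbp3, which carries IGF1 together with Igfals and is made mainly outside hepatocytes, differed by 0.15 ± 0.19 (adjusted p = 0.84). Igf2 differed by 0.40 (adjusted p = 0.15) and Igfbp5 by −0.68 (adjusted p = 0.32). Of the 10 ligands and binding proteins measured, 2 rose and 2 fell. In refits without 1 array the calls of Igfbp1 and Igfbp2 were lost in 5 and 6 of 6 cases. Over the alternative runs their differences stayed between 3.25 and 4.15 and between 0.98 and 1.25.

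Of 8 feedback inhibitors of cytokine receptors measured, Socs2 and Cish fell and 0 rose. Socs2 had ratios of 5.85, 2.7 and 10.71 in WT, a wide spread, and 1.35, 0.87 and 0.79 in Box1, and fell by 2.50 ± 0.43 (adjusted p = 0.0084), a call lost without Box1 replicate 3 (adjusted p = 0.052). The pair of other Socs2 probes differed by 0.00 and −0.04. Cish, whose promoter with 2 motifs is printed above, had 3.66, 1.53 and 6.6 in WT and 0.95, 0.88 and 0.88 in Box1. It fell by 1.88 ± 0.43 (adjusted p = 0.044), a call that was lost in 5 of 6 refits without 1 array. WT replicate 2 was the lowest WT array for both genes. Socs3, a target of STAT3 signals, differed by −0.44 (adjusted p = 0.43) and Socs5 by 0.42 (adjusted p = 0.053).

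**Figure D2:**
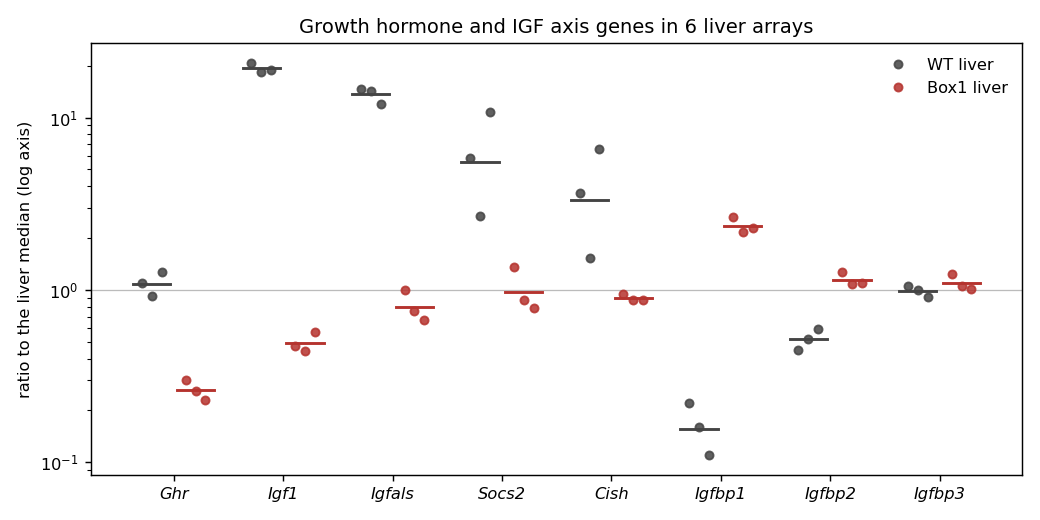
Deposited ratios (log axis) of 8 growth hormone and IGF pathway genes in 3 WT and 3 Box1 liver arrays; points are arrays and bars are means of the log values. Igf1 and Igfals drop from above 12 to 1 or less, Igfbp1 rises from at most 0.22 to at least 2.18, and Igfbp3 overlaps.

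Kinases and transcription factors of the pathway changed less. Jak2, the kinase that Box1 holds, had ratios of 1, 0.89 and 0.8 in WT and 1.39, 1.3 and 1.49 in Box1, a rise of 0.64 ± 0.12 (adjusted p = 0.017). Leaving out 1 array ended that call in 4 of 6 cases, and the pair of other Jak2 probes differed by −0.14 and 0.06. Stat3, the effector of interleukin-6 signals, went from 0.7, 0.49 and 0.58 to 1.19, 1.23 and 1.09, a 2-fold rise with an SE of 0.14 on the log2 scale (adjusted p = 0.0014). Il6ra, a chain of the interleukin-6 receptor, rose by 1.76 ± 0.14 from 0.59, 0.39 and 0.42 to 1.48, 1.46 and 1.75 (adjusted p = 5.7e-06). Of the 4 other Il6ra probes 1 was called, at 1.20 (adjusted p = 0.00088), and the others differed by 0.07, 0.48 and 0.63. Stat5a differed by 0.43 (adjusted p = 0.27). Of 13 kinases and STAT factors measured, 2 rose and 0 fell. Among 15 receptors, Il6ra rose and Ghr fell. Egfr, the epidermal growth factor receptor, had probes that disagreed: the selected one, the most variable, differed by −2.15 and was not called (adjusted p = 0.054), while another went from 8.13, 5.03 and 9.13 to 0.87, 0.95 and 1.06 and was called (−2.91 ± 0.18, adjusted p = 2.2e-07). The others differed by −1.63, −0.54 and 0.00.

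Of 21 transcription factors known to respond to growth hormone in liver, 2 rose and 1 fell. Bcl6, whose window holds 3 motifs, had ratios of 0.27, 0.42 and 0.22 in WT and 1, 1.15 and 1.22 in Box1. It rose by 1.94 ± 0.36 (adjusted p = 0.013), with no overlap. Tox, a nuclear factor with female-biased expression in liver, rose by 1.43 ± 0.28 (adjusted p = 0.019). Id3, an inhibitor of helix-loop-helix factors, fell by 1.13 ± 0.20 (adjusted p = 0.011). In refits without 1 array the calls of Bcl6, Tox and Id3 were lost in 3, 4 and 2 of 6 cases.

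The list of genes with higher expression in male liver fell: of 22 measured, 14 fell, where 0.484% of all genes did so, and 0 rose. Its median difference was −2.81 against 0.04 over all genes. Like every list here, it was written with earlier results of these data known, so its count describes the list and is no independent test. Without 1 array the count of falls was 12 to 14. Serpina1e, a paralogue of alpha-1-antitrypsin, had the largest fall, from 107.1, 109.8 and 111.7 to 1, 0.75 and 0.8. It fell by 7.02 ± 0.16 (adjusted p = 7.3e-13), about 130-fold. The other Serpina1e probe differed by 0.08 and was not called. Cyp4a12a, a fatty acid hydroxylase of male liver and kidney, fell from 49.2, 44.87 and 83.26 to 0.5, 0.57 and 0.6, by 6.68 ± 0.32 (adjusted p = 7.2e-09). The near-identical Cyp4a12b fell by 5.62 ± 0.25, and the probes of the pair may read both copies.

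Mup2, a major urinary protein that binds pheromones, went from 10.96, 9.89 and 17.75 to 1, 0.52 and 0.46 and fell by 4.32 ± 0.33 (adjusted p = 2.6e-06). Mup5, the other family member measured, differed by 0.06 (adjusted p = 0.94). Slco1a1, a transporter of organic anions, fell by 4.05 ± 0.16 (adjusted p = 9.3e-10), and its Box1 ratios of 1, 0.88 and 1.02 were far from the WT ratios of 17.1, 12.93 and 18.44. Its other probe differed by 0.03 and was not called. Elovl3, an elongase of very long chain fatty acids, fell by 3.40 ± 0.18 (adjusted p = 3.7e-08). Serpina12, which encodes vaspin, fell by 3.57 ± 0.33 (adjusted p = 2e-05), while its other probe differed by −0.31 and was not called. Susd4, a complement regulator, fell by 2.84 ± 0.20 and Cyp7b1, an oxysterol hydroxylase, by 2.81 ± 0.29. Hsd3b5, a steroid dehydrogenase of male liver, differed by −3.01 and was not called (adjusted p = 0.056). None of the measured male-biased genes was called higher, with 2 of 22 above 0.

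The list of genes that female livers express more strongly rose: of 28 measured, 10 rose, where 1.62% of all genes did so, and 0 fell. Its median was 0.51, and it too was written with earlier results known. Without 1 array the count of rises was 6 to 10. Sult2a2, a sulfotransferase of bile acids and steroids, was printed at the floor of 0.01 in each of the 3 WT arrays and at 1.24, 1.04 and 1.03 in Box1. The fitted difference was 6.78 ± 0.10 (adjusted p = 1.4e-15), and with 0.01 replaced by 0.015, the most it could be before rounding, the rise was at least 72.9-fold. Its relative Sult2a1 rose by 4.67 ± 0.13, from 0.04, 0.05 and 0.04 to 1.18, 1.13 and 1 (adjusted p = 4.3e-12).

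Cyp2b13 and Cyp2b9, female-biased enzymes of drug and steroid oxidation, rose further than any other P450. Cyp2b13 had ratios of 0.66, 0.72 and 0.59 in WT and 79.67, 53.55 and 61.74 in Box1, a rise of 6.61 ± 1.17 (adjusted p = 0.011). Cyp2b9 went from 0.19, 0.11 and 0.1 to 5.4, 5.32 and 5.21, a rise of 5.38 ± 0.96 (adjusted p = 0.011). Both calls were lost without WT replicate 3. Cyp2a4, a steroid hydroxylase, rose by 2.81 ± 0.27 (adjusted p = 2.6e-05) and Hao2, a peroxisomal hydroxy acid oxidase, by 2.03 ± 0.17 (adjusted p = 5.7e-06). The female-biased members of the Cyp3a family did not follow: Cyp3a16 differed by 0.07, Cyp3a41a by 0.08 and Cyp3a44 by 0.14, none called (limma adjusted p = 0.91, 0.95 and 0.7). Of the 6 Cyp3a enzymes measured 0 were called, and 0 had an unadjusted p under 0.05.

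**Figure D3:**
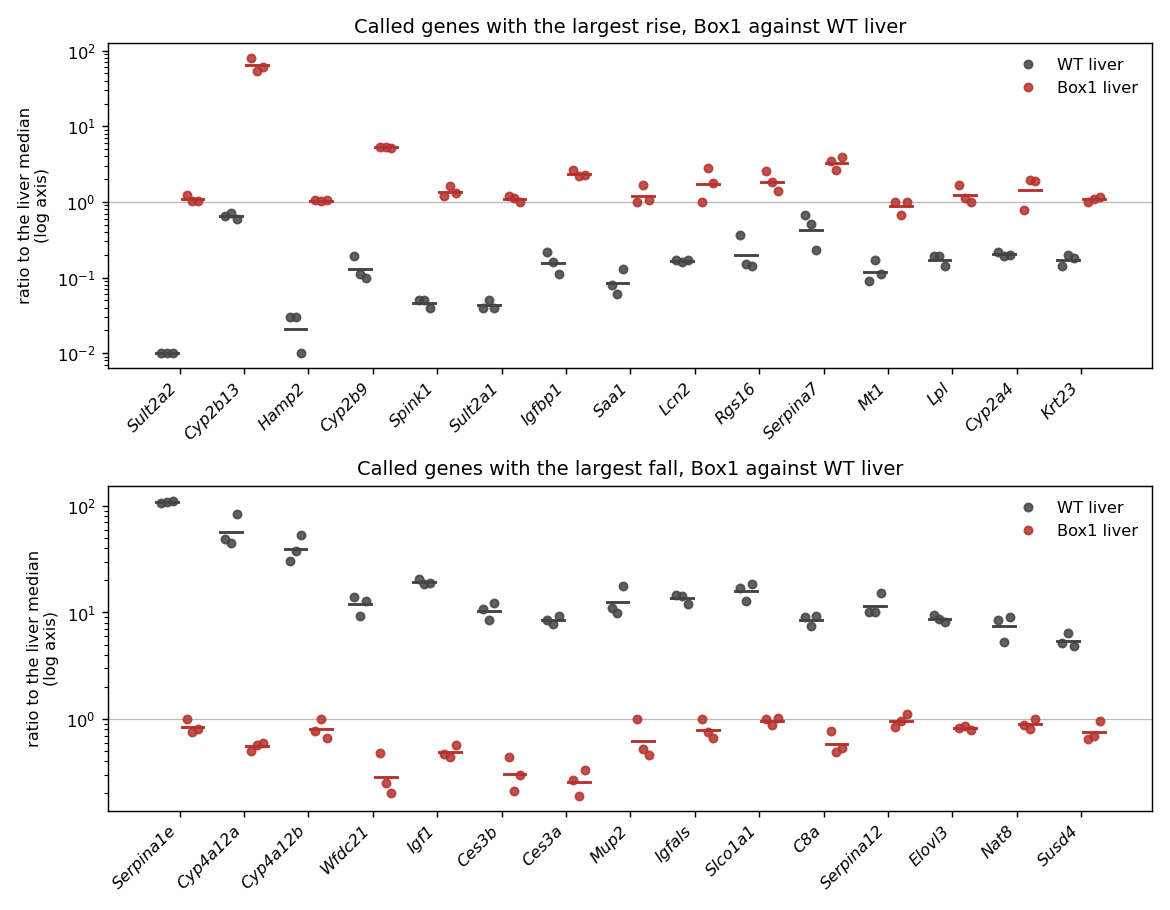
Deposited ratios (log axis) of the 15 called genes with the largest rise (top) and the 15 with the largest fall (bottom) in 3 WT and 3 Box1 liver arrays; points are arrays and bars are means of the log values. The groups do not overlap for any gene drawn, Sult2a2 lies at the floor of 0.01 in all WT arrays, and Hamp2 does so in 1.

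Enzymes that modify drugs, steroids and lipids were called in both directions. Of 37 Cyp2 enzymes, 5 rose and 4 fell. Cyp2c23, an epoxygenase of arachidonic acid, fell by 2.30 ± 0.19 from between 2.12 and 3.42 to between 0.56 and 0.61 (adjusted p = 7.7e-06), and Cyp2c54 fell by 2.14 ± 0.27 (adjusted p = 0.00068). Cyp2a5, the coumarin hydroxylase, rose by 2.25 ± 0.35 (adjusted p = 0.004). Of 16 Cyp4 enzymes, 4 fell and 0 rose, among them Cyp4f14, a leukotriene hydroxylase, by 2.29 ± 0.28 (adjusted p = 0.00044).

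The carboxylesterases Ces3a and Ces3b, lipid droplet and microsomal hydrolases of liver, fell together. Ces3a went from 8.43, 7.78 and 9.36 to 0.27, 0.19 and 0.33, and fell by 5.05 ± 0.34 (adjusted p = 6e-07), and Ces3b fell by 5.11 ± 0.31 (adjusted p = 1.5e-07). The other 13 esterases measured were not called, and the near-identical pair may share probes. Of 15 sulfotransferase genes, 3 rose, of 27 glutathione S-transferases 3 rose and 1 fell, and of 20 glucuronosyltransferases 1 fell. Gstt3 rose by 1.71 ± 0.27 (adjusted p = 0.004), Gstp1 fell by 1.30 ± 0.26 (adjusted p = 0.02) and Ugt2b1 fell by 1.56 ± 0.14 (adjusted p = 2.1e-05), of which the Gstp1 call was lost in 4 of 6 refits without 1 array. The other Gstt3 probe differed by 0.03 and was not called. Cyp17a1, the steroid 17-hydroxylase, rose by 2.15 ± 0.49 (adjusted p = 0.044), a call lost in 5 of 6 refits without 1 array. Nat8, an acetyltransferase of cysteine conjugates, fell by 3.06 ± 0.19 (adjusted p = 2.3e-07).

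Secreted plasma proteins moved in both directions. Of 39 complement and coagulation genes measured, 6 fell and 0 rose, and the median of the list was −0.06. C8a fell from 9.06, 7.42 and 9.28 to 0.77, 0.49 and 0.54, by 3.86 ± 0.18 (adjusted p = 7.2e-09), C6 by 2.82 ± 0.25 (adjusted p = 1.3e-05), C8b by 2.64 ± 0.20 (adjusted p = 2.3e-06) and C9 by 1.40 ± 0.22 (adjusted p = 0.0046). The other probes of C6 and C9 differed by 0.18 and −0.29, neither called. The coagulation factor F11 fell by 1.43 ± 0.25 and the lectin Mbl1 by 0.63 ± 0.14. The Mbl1 call was lost in all 6 refits without 1 array and that of F11 in 2. These complement proteins assemble the membrane attack pore with others that were not called: Hc differed by 0.15, C7 by −0.13 and C8g by 0.05 (limma adjusted p = 0.6, 0.61 and 0.9). C6 and C8b were also on the male-biased list.

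Acute phase proteins, which the liver makes under interleukin-6 and interleukin-1, rose in 7 of 30 cases and fell in 0, with a median of 0.36. Saa1, a serum amyloid, had ratios of 0.08, 0.06 and 0.13 in WT and 1, 1.65 and 1.05 in Box1 and rose by 3.81 ± 0.80 (adjusted p = 0.029). Lcn2, the siderophore-binding lipocalin, rose by 3.36 ± 0.78 (adjusted p = 0.049), from 0.17, 0.16 and 0.17 to 1, 2.77 and 1.8. Itih4 rose by 1.89 ± 0.17 (adjusted p = 2.1e-05) and Serpina3n by 1.61 ± 0.22 (adjusted p = 0.0016). The calls of Saa1 and Lcn2 were lost in each of the 6 refits without 1 array, in which the list kept 3 rises, while those of Itih4 and Serpina3n were kept.

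Serpina7, which encodes thyroxine-binding globulin, rose by 2.94 ± 0.41 (adjusted p = 0.0017), from 0.68, 0.51 and 0.23 to 3.49, 2.67 and 3.87. Hamp2, a relative of the iron hormone hepcidin, rose by 5.65 ± 0.37 (adjusted p = 3.7e-07), from 0.03, 0.03 and 0.01 to 1.06, 1.02 and 1.05. With the value at the floor set to 0.015 and the others to the ends of their rounding intervals, that rise was at least 39.3-fold. Hamp itself differed by −0.50 (adjusted p = 0.11), and of 29 genes of iron and haem handling Hamp2 alone was called. Spink1, a trypsin inhibitor also made by pancreas, rose by 4.88 ± 0.35 (adjusted p = 1e-06), from 0.05, 0.05 and 0.04 to 1.21, 1.6 and 1.33. The pancreatic acinar markers did not move with it: 0 of 17 were called and 0 had an unadjusted p under 0.05, and their mean log2 ratio was −0.04 to 0.18 in Box1 and −0.08 to 0.02 in WT. Wfdc21, a secreted whey acidic protein, fell by 5.37 ± 0.48 (adjusted p = 1.4e-05), from 13.98, 9.32 and 12.92 to 0.48, 0.25 and 0.2.

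Of 34 genes that take up fatty acids or build lipid droplets, 3 rose and 0 fell. Lpl, the lipase that releases fatty acids from lipoproteins, had ratios of 0.19, 0.19 and 0.14 in WT and 1.67, 1.11 and 1 in Box1 and rose by 2.84 ± 0.28 (adjusted p = 5.3e-05). The pair of other Lpl probes differed by 0.01 each and were not called. Vldlr, the very low density lipoprotein receptor, rose by 2.42 ± 0.26 (adjusted p = 0.00012), and Pparg, a nuclear receptor of lipid storage, rose by 1.24 ± 0.17 (adjusted p = 0.0014). Of the 4 other Vldlr probes 1 was called (1.79, adjusted p = 0.00068) and 3 differed by −0.21, −0.05 and 0.07. The pair of other Pparg probes differed by 0.28 and −0.11, neither called. Scarb1, the receptor for high density lipoprotein, rose by 1.46 ± 0.27 (adjusted p = 0.012), a call lost in 3 of 6 refits without 1 array.

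Of 30 genes of fatty acid synthesis and desaturation, 4 rose and 2 fell. Acaca, the first committed enzyme of synthesis, went from 0.94, 0.64 and 0.61 to 1.35, 1.53 and 1.73 and rose by 1.09 ± 0.16 (adjusted p = 0.002), while the 3 other Acaca probes differed by −0.01, −0.12 and 0.05 and were not called. The elongase Elovl6 rose by 1.08 ± 0.20 (adjusted p = 0.013), the desaturase Scd2 by 1.56 ± 0.29 (adjusted p = 0.014) and the phosphatidate phosphatase Lpin1 by 2.04 ± 0.40 (adjusted p = 0.02). Elovl3, named above, and Scd3 (−0.41 ± 0.09, adjusted p = 0.04) fell. In refits without 1 array the calls of Elovl6, Scd2 and Lpin1 were lost in 4 of 6 cases each and that of Scd3 in all 6. The other probes of Elovl6 (0.26) and Lpin1 (0.18 and 0.10) were not called. Of 39 genes of fatty acid oxidation and ketogenesis, 0 were called in limma, 10 had an unadjusted p under 0.05, and 35 were above 0, with a median of 0.26. Over all 19406 genes, 3272 had an unadjusted p under 0.05 and 11712 were above 0. Cpt1b, a carnitine palmitoyltransferase, differed by 1.38 (adjusted p = 0.052).

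Fasting and insulin genes were called in few cases. Foxo1, the factor that insulin restrains, rose by 0.70 ± 0.15 (adjusted p = 0.031), and with Lpin1 it made up the 2 of 30 genes of gluconeogenesis and fasting called, at a list median of 0.45. Leaving out 1 array ended the Foxo1 call in 5 of 6 cases and the Lpin1 call in 4. Pck1, the gluconeogenic carboxykinase, differed by 1.44 (adjusted p = 0.21). Of 68 respiratory chain genes 5 rose and 0 fell, with a median of 0.38. Of the 68, 66 were above 0, as were 11712 of all 19406 genes. The called genes were Uqcrq (0.74 ± 0.12, adjusted p = 0.0053), Cox5b, Ndufb8, Ndufb7 and Atp5g2. Without WT replicate 1 that count was 14, and without any 1 of the other arrays it was 1 or 2. The other Uqcrq probe differed by 0.05 and was not called. Of 70 cytosolic ribosomal protein genes 1 was called, Rps6 (0.63 ± 0.11, adjusted p = 0.011; lost in 3 of 6 refits without 1 array), with a median of 0.18.

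Amino acid enzymes were called in both directions. Kyat3, a kynurenine aminotransferase, fell by 2.09 ± 0.33 (adjusted p = 0.004), and Csad, which decarboxylates cysteine sulfinate on the way to taurine, fell by 1.27 ± 0.29 (adjusted p = 0.045), a call lost in all 6 refits without 1 array. Glud1, glutamate dehydrogenase, rose by 0.71 ± 0.10 (adjusted p = 0.0025). Asns, asparagine synthetase, fell by 1.58 ± 0.27 (adjusted p = 0.0084), and its other probe differed by −0.13.

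Other called genes belonged to stress and regulatory groups. Mt1, a metallothionein, rose by 2.88 ± 0.44 (adjusted p = 0.0036), from 0.09, 0.17 and 0.11 to 1, 0.67 and 1. Rgs16, a regulator of G protein signalling, rose by 3.24 ± 0.48 (adjusted p = 0.0027) and Krt23, a keratin, by 2.66 ± 0.38 (adjusted p = 0.002). Egr1, an immediate early factor, rose by 2.51 ± 0.55 (adjusted p = 0.036) and was the 1 of 25 immediate early genes called; the call was lost in 5 of 6 refits without 1 array. Herpud1, of the endoplasmic reticulum stress response, rose by 1.55 ± 0.26 (adjusted p = 0.0072). Among 20 clock genes 0 were called in limma and 6 had an unadjusted p under 0.05, as did 3272 of all 19406 genes.

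Hepatocyte markers lay close to the liver median in both groups, though ratios cannot show their level. Their mean log2 ratio was −0.23 to −0.09 in WT and 0.04 to 0.13 in Box1, and 1 of 13, Asgr2 (0.70 ± 0.16, adjusted p = 0.044), was called, though not in 5 of 6 refits without 1 array. Macrophage markers averaged −0.20 to −0.09 in WT and 0.32, −0.08 and 0.26 in Box1, with 16 of 18 above 0, 0 called and 4 with an unadjusted p under 0.05. Endothelial markers averaged −0.24 to 0.06 in WT and 0.05 to 0.18 in Box1, and 1 of 16 was called, Stab1 (0.77 ± 0.14, adjusted p = 0.015; lost in 3 of 6 such refits). Stellate cell markers averaged −0.22 to −0.03 in WT and 0.08 to 0.24 in Box1, with 0 of 14 called and 3 with an unadjusted p under 0.05. Of 10 bile duct markers Sox9 alone was called, lower, and of 6 erythroid markers Alas2 alone, also lower. Among 11 adipocyte markers Pparg was called higher and Scd3 lower, and among 17 lymphocyte and neutrophil markers 0 were called. The part of these shifts in the acute phase and other results was not tested. Ratios carry no level, so whether a marker of another cell type is at or near 0 is unknown.

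**Figure D4:**
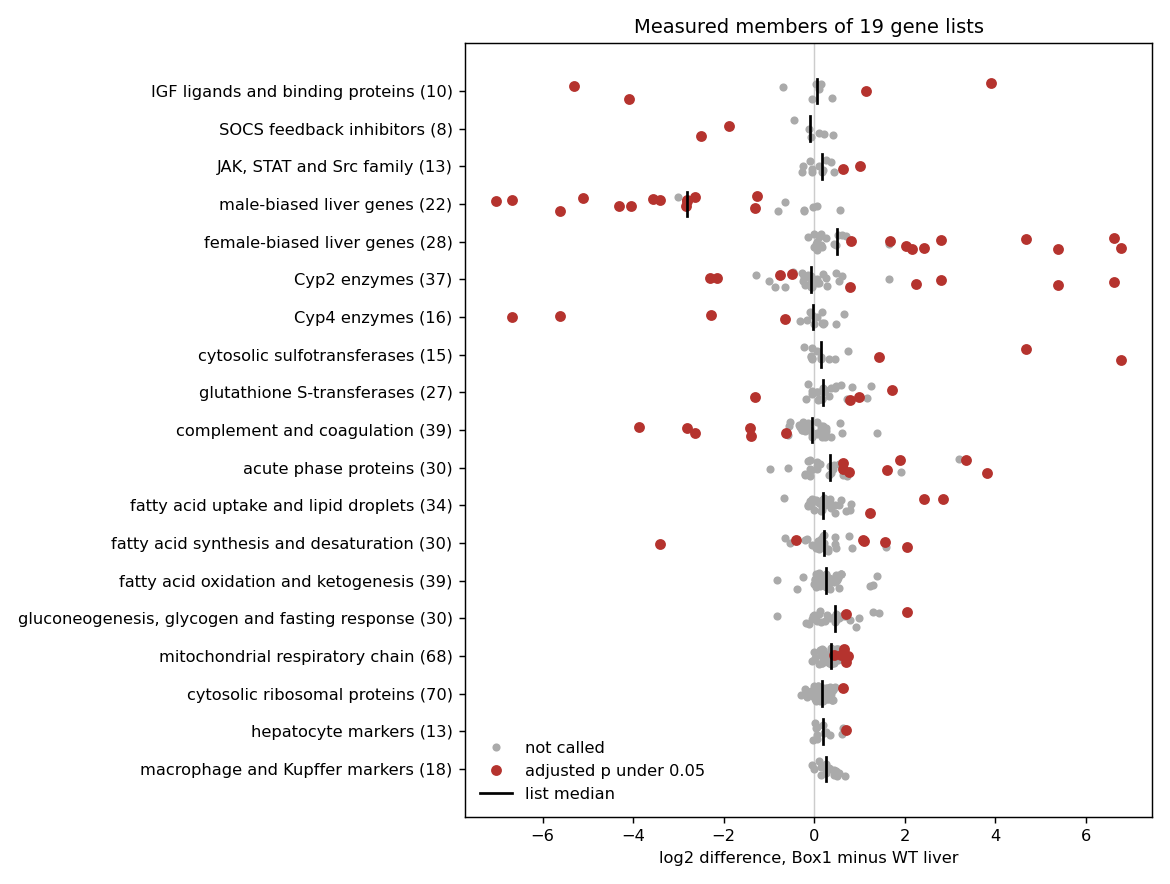
Fitted log2 differences, Box1 minus WT liver, of the measured members of 19 gene lists (number measured in brackets), 1 probe per gene; red points have an adjusted p under 0.05 and black bars are list medians. The male-biased list has a median of −2.81 with called members on the left alone, and the respiratory chain and ribosomal lists lie within 1 of 0. All lists were written with earlier results of these data known.

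The other receptor genotypes were compared with the same WT arrays, so the values below share controls and are set side by side without a test of likeness. Igf1 differed from WT by −5.30 in Box1, −5.31 in 391, −4.39 in KO and −0.55 in 569. Serpina1e differed by −7.02, −7.18, −6.94 and −0.05 in the same order, and Sult2a2 by 6.78, 6.90, 6.69 and −0.00. The 569 values of these genes were not called (adjusted p = 0.52, 0.98 and 1). The probes that set WT apart from all other livers read Lcn2 and Serpina12, and there 569 lay outside the WT range too. Lcn2 ratios were 0.17, 0.16 and 0.17 in WT and 2.62, 2.49 and 0.45 in 569. Serpina12 ratios were 10.07, 10 and 15.2 in WT and 1.66, 3.26 and 4.84 in 569. Median differences of the 22 male-biased genes were −2.81 in Box1, −2.83 in 391, −2.71 in KO and −0.06 in 569. Of the 28 female-biased genes 10 rose in Box1, 9 in 391 and 9 in KO, where 1.62%, 2.47% and 2.43% of all genes did so. Their median differences were 0.51 in Box1, 0.38 in 391, 0.16 in KO and −0.05 in 569. Of all probes, 1.91% were called in 391, 1.93% in KO and 0.00858% in 569.

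The direct test of Box1 against KO called 69 probes (0.148%), 39 higher (0.0836%) and 30 lower (0.0643%) in Box1. Ghr was lower in Box1 than in KO by 2.28 ± 0.23 (adjusted p = 0.00029), and the unnamed probe 104060685 was higher by 3.81 ± 0.10. Several of the largest differences were at probes that set the livers labelled KO apart from all other livers: Gdi2 was higher in Box1 by 3.22 ± 0.16 (adjusted p = 8.9e-08), A1cf, a factor of apolipoprotein B editing, by 2.67 ± 0.16, and Abhd1 was lower by 2.38 ± 0.18. At Gdi2 the ratios were 1.24, 1.22 and 1.27 in Box1 and 1.12, 0.97 and 0.64 in WT. At Abhd1 they were 0.93, 1.3 and 0.83 in Box1, 0.87, 1 and 0.93 in WT and 5.32, 4.83 and 5.48 in KO.

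Some genes were reduced in both Box1 and KO, and further in Box1. Ces3a stood at 0.27, 0.19 and 0.33 in Box1, at 1.79, 0.5 and 1 in KO and above 7 in WT. It was lower in Box1 than in KO by 1.91 ± 0.34 (adjusted p = 0.043), and Ces3b was lower by 1.67 ± 0.31 (adjusted p = 0.047). Zap70, a tyrosine kinase of T cells that was picked after its values were seen, had 1.93, 1.39 and 1.92 in WT, 0.4, 0.39 and 0.42 in Box1 and 1, 1.1 and 0.85 in KO. It fell by 2.10 ± 0.17 against WT (adjusted p = 4.2e-06) and was 1.28 lower in Box1 than in KO (−1.28 ± 0.17, adjusted p = 0.0041). Igf1 was lower in Box1 than in KO by 0.91 (interval −1.29 to −0.53, adjusted p = 0.074) and Wfdc21 by 2.16 (−3.18 to −1.15, adjusted p = 0.1), neither called. The low values were not particular to Box1. Against WT, Ces3a, Ces3b and Zap70 differed by −5.18, −5.35 and −1.83 in 391 and by −5.05, −5.11 and −2.10 in Box1.

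Csad went the other way. Its ratios were 2.86, 2.65 and 2.41 in WT, 1, 1.11 and 1.17 in Box1 and 0.43, 0.33 and 0.15 in KO, so KO lay below Box1 in every array, and the difference of Box1 minus KO was 1.98 ± 0.29 (adjusted p = 0.01). Cyp2a4 was higher in KO, at 3.98, 3.33 and 3.04 against 0.78, 1.97 and 1.89 in Box1, with a difference of −1.26 (interval −1.83 to −0.70, adjusted p = 0.087) that was not called. Cyp2b13 was uneven in KO, at 0.78, 0.71 and 77.18, and Box1 minus KO was 4.20 ± 1.17 (adjusted p = 0.25). The count of 69 was 31 without Box1 replicate 2, 31 without Box1 replicate 3, 44 without KO replicate 1, 33 without KO replicate 2 and 155 without liver 391 replicates 2 and 3.

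**Figure D5:**
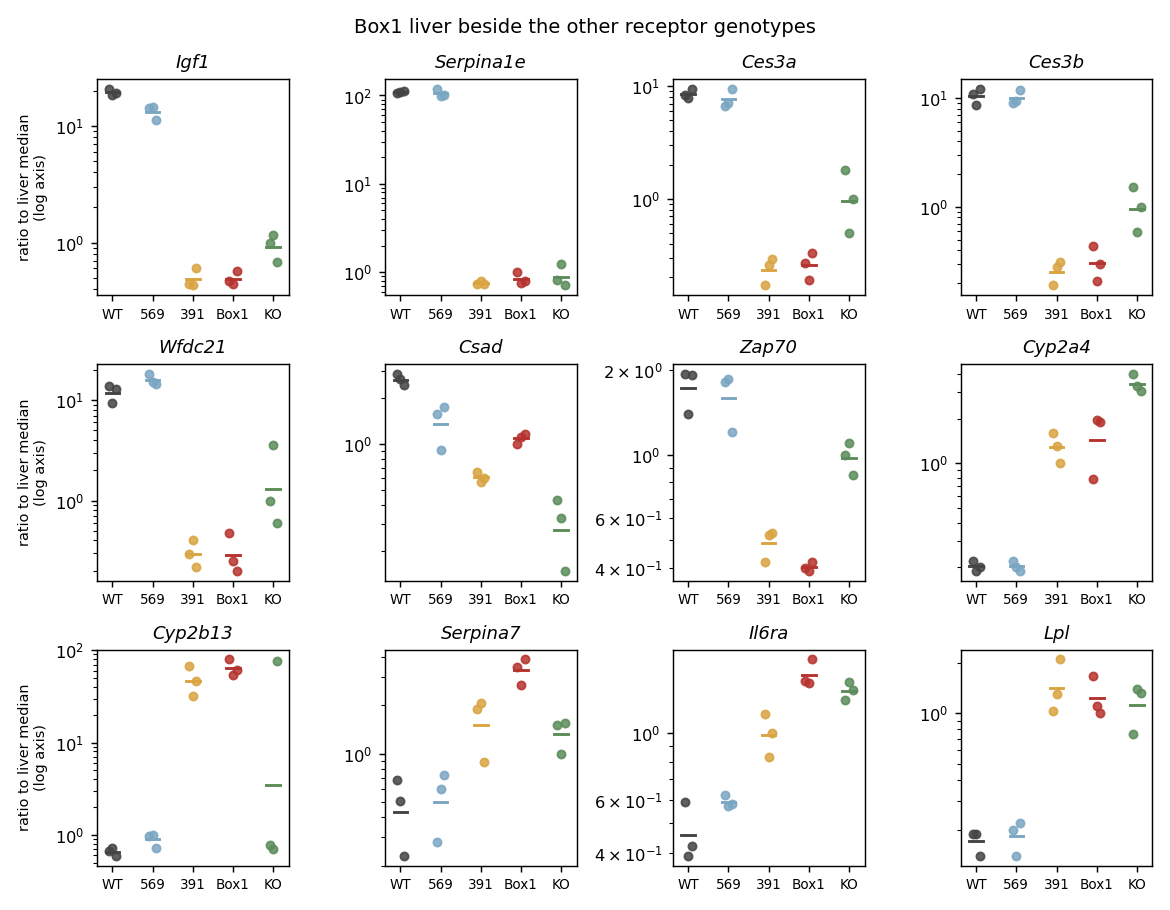
Deposited ratios (log axis) of 12 genes in the 15 liver arrays, by genotype label; points are arrays and bars are means of the log values. Ces3a and Ces3b are lowest in 391 and Box1 and intermediate in KO, Csad is lowest in KO, and Cyp2b13 is above 31 in all 391 and Box1 arrays and in 1 KO array.

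Box1 and 391 were told apart at 2 probes (0.00429%). Ghr was lower in Box1 by 1.79 ± 0.23 (adjusted p = 0.028), with 391 ratios of 0.68, 0.78 and 1.4, and the unnamed probe was higher by 3.82 ± 0.10 (adjusted p = 1.9e-11). The count was 1 without any 1 of the Box1 arrays, 1 without 391 replicate 2, 4 without 391 replicate 3 and 52 without 391 replicate 1, and it was 1 without both 391 arrays that hold pancreatic transcripts. Where 1 probe remained in these refits it was a higher one, so the Ghr call was lost without any 1 Box1 array, without 391 replicate 2 and without both 391 arrays. It was also lost with the 6 arrays alone, with an offset of 0.1 and with robust variances. Of all 46643 probes, 2837 had an unadjusted p under 0.05 in limma, a count that includes those the threshold lets through without any difference. The intervals of Box1 minus 391 were −0.37 to 0.39 for Igf1, −0.34 to 0.61 for Igfals, −0.48 to 1.36 for Socs2, −0.18 to 0.50 for Serpina1e and −0.33 to 0.09 for Sult2a2. For Cyp2b13 the interval was −2.03 to 2.97. A missed call does not show equal levels, and these intervals bound the differences the arrays leave possible.

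In fat the labels are in doubt, as described above, and the fat comparison called 1 probe of 46643 (0.00214%), against 2118 at an unadjusted p under 0.05. That probe reads Sctr, the secretin receptor, with fat ratios of 2.8, 3.52 and 2.78 in WT and 0.77, 0.49 and 1.03 in Box1, a difference of −2.05 ± 0.22 (adjusted p = 0.038). Sctr was −2.30 without fat Box1 replicate 3, which is high at the unnamed probe (adjusted p = 0.0077). Without fat Box1 replicates 1 and 2, a setting added after the data were seen, it was −1.55 and not called (adjusted p = 0.084). That setting leaves 1 Box1 array, which is assumed to vary like the other groups, and calls 10 other probes, all higher. The Sctr call was also lost without fat Box1 replicate 1, without any 1 WT array, with the 6 arrays alone and after quantile normalization. Probes called higher in Box1 liver were positive in fat in 72.4% of cases, against 56.4% of all probes, and those called lower in 48%. Without fat Box1 replicate 3 these shares were 79.3%, 59% and 54.5%, and without fat Box1 replicates 1 and 2 they were 47.5%, 49.4% and 43.1%, so the higher share rests on that pair of arrays. Liver and fat arrays labelled Box1 shared a slide, and the part of this in the fat values was not tested. The 11 muscle markers had a median Box1 minus WT difference of 2.22 in fat, against 0.03 over all genes, and 0 were called. The part of muscle tissue in the fat and liver against fat results was not tested.

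The difference of Box1 minus WT was itself different between liver and fat at 69 probes (0.148%), 25 in which liver was the higher (0.0536%) and 44 the lower (0.0943%). The count was 57 without fat Box1 replicate 3 and 69 without fat Box1 replicates 1 and 2, of which 46 were shared with the main fit. Serpina1e, Cyp4a12a, Slco1a1 and Sult2a1 were among them, with fat differences of −1.10, −0.58, 0.09 and 0.11, none called. The fat differences of these genes were −1.18, −0.63, 0.03 and 0.33 without fat Box1 replicate 3 and −0.95, −0.48, 0.20 and −0.32 without fat Box1 replicates 1 and 2, and their calls between the tissues were kept in both settings. Igfals differed in fat by −2.08 (not called, adjusted p = 0.11) against −4.10 in liver, and the liver minus fat difference of −2.02 (adjusted p = 0.014) was −1.81 without fat Box1 replicate 3 (adjusted p = 0.069) and −2.43 without replicates 1 and 2 (adjusted p = 0.021). Igf1 differed by −1.58 in fat against −5.30, and the difference between tissues was not called (−3.72, adjusted p = 0.05). For Igf1 it was −3.51 and −4.15 in the same settings (adjusted p = 0.16 in both).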

How the data were processed

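RNA of mouse liver and subcutaneous fat was extracted with columns and hybridised to Illumina bead arrays, per the labels' protocols. The authors deposited 1 ratio per probe and array; in each tissue every probe has a median of exactly 1 over its 15 arrays, which was tested on the files. Which software and background steps were used is not given in the sources used here. Signal over background is unknown, so a dim probe cannot be told from a bright one. The number of arrays, 3 a group, limits the precision. Groups came from the labels, and the members and gene lists were chosen with earlier results of these data known.

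Log2 ratios were fitted in limma 3.58.1 (R 4.3.3) with the 5 liver genotypes in 1 model, two-sided, with Benjamini-Hochberg adjustment over 46643 probes and a threshold of 0.05. Fat was fitted likewise, and liver against fat by an interaction over 30 arrays. Of the probes, 32794 name 1 gene, 55 several and 13794 none. A gene was read from its most variable liver probe. The fit was tested on simulated arrays with planted differences and independent noise. These held no slide effect, so that test cannot bear on slide. Named genes were the axis genes, up to 15 called genes each way, up to 6 per list, up to 8 each way against KO and 391, and up to 5 each way for fat and tissue. Alternatives changed the arrays fitted, normalization, offset, filter, weights and block.

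Slide position letters are shared between groups. Deviations of same-letter Box1 and WT arrays correlated at -0.095, -0.094 and -0.063, and those of different letters at 0.024 to 0.067. Deviations from a mean of 3 arrays are tied to each other, so these values cannot decide whether position matters.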

Additional observations from a re-analysis of the deposited data

Results flagged for a closer look

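For 34 named genes the Box1 minus WT difference was itself different between liver and fat, by limma's interaction term with an adjusted p under 0.05 over all probes. Liver was the higher for 11 of them and the lower for 23. Genes were named by their liver difference, by list or by this same contrast, so their count was shaped by that choice. Over all 46643 probes 69 (0.148%) were called. The labels disagree between the tissues, as described above, and the cause of these differences was not tested.

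The liver difference minus the fat difference, on the log2 scale, was 5.91 for Sult2a2, 4.59 for Spink1, 4.56 for Sult2a1, 3.02 for Lpl, 2.93 for Serpina7, 2.89 for Rgs16, 2.67 for Cyp2a4, 2.08 for Sctr, 1.99 for Hao2, 1.97 for Scd2 and 0.74 for Il1rn. For Sctr the liver difference was 0.04 and the fat difference −2.05, so its value comes from fat.

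In the other direction it was −6.10 for Cyp4a12a, −5.92 for Serpina1e, −5.58 for Wfdc21, −5.42 for Cyp4a12b, −5.03 for Ces3b, −4.97 for Ces3a, −4.14 for Slco1a1, −3.72 for C8a, −3.64 for Mup2, −3.60 for Susd4, −3.44 for Serpina12, −3.16 for Elovl3, −2.89 for Nat8, −2.64 for Cyp7b1, −2.57 for C8b, −2.39 for Cyp2c23, −2.39 for Cyp4f14, −2.30 for Cyp2c54, −2.29 for C6, −2.02 for Igfals, −1.81 for Gstp1, −1.69 for Ugt2b1 and −1.60 for F11. For Igfals the liver difference was −4.10 and the fat difference, not called, was −2.08.

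Without fat Box1 replicate 3, 28 of the 34 were still called; Igfals, Rgs16, Gstp1, Scd2, Il1rn and F11 were lost, at −1.81, 2.80, −1.75, 1.85, 0.78 and −1.53. Without fat Box1 replicates 1 and 2, which leaves 1 array assumed to vary like the other groups, 26 were; Rgs16, Mup2, Gstp1, Cyp7b1, Scd2, Il1rn, C6 and F11 were lost, at 3.05, −3.52, −1.93, −2.27, 2.20, 0.68, −1.98 and −1.73. In both settings 0 changed direction.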

How the results depend on the processing

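Of 98 named genes called in Box1 against WT, 55 kept their call in every alternative run, 43 lost it in at least 1, 42 of these without 1 array, and 0 reversed. The count of 616 was 1110 with the 6 arrays alone, 974 with array weights and 1168 without liver 391 replicates 2 and 3, and 251 to 984 without 1 array. With slide position as a replicate block it was 532, of which 326 were shared. The share of calls that were higher was 80% in the main fit, 74.1% after quantile normalization, 62.1% and 64.5% without WT replicates 2 and 3, and 88.8% without WT replicate 1. Box1 against KO gave 69, but 398 with 6 arrays, 240 after quantile normalization, 155 without both 391 arrays, and 31 to 72 without 1 array. Box1 against 391 gave 2, but 5 after quantile normalization, 1 with 6 arrays, with an offset of 0.1, with named probes, with robust variances and without both 391 arrays, and 1 to 52 without 1 array. Fat gave 1, but 0 with 6 arrays in limma (2757 at an unadjusted p under 0.05), 2 with array weights, 10 without fat Box1 replicates 1 and 2 (added after the data were seen, with 0 shared), and 0 to 2 without 1 array. In limma the 0 arose without fat Box1 replicate 1 (1570 unadjusted), WT replicate 1 (1713) or WT replicate 3 (1801). Liver against fat gave 69, but 109 with 12 arrays, 132 with array weights, and 55 to 89 without 1 array. The cause of these shifts was not tested. With an offset of 0.1 the Sult2a2 difference was 3.45. Signal over background is unknown, so depth sets no limit that can be given.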
